A study of Mus musculus with 22 samples.

Results

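The genes described here are 8 neighbours of Mapkapk3, the gene for the kinase MK3, on mouse chromosome 9: Abhd14a, Abhd14b, Pcbp4, Parp3, Iqcf5 and Rbm15b on the low-numbered side and Cish and Cacna2d2 on the other. They were chosen by name because their array signals had differed in macrophages lacking MK2 and MK3. The levels in those macrophages are therefore given as a description, without a test. All 8 of the 8 named genes had probes and passed the filter on dim probes, among 22381 genes tested in all. The series compared bone marrow-derived macrophages (BMDM), grown from femoral marrow of male C57BL/6 mice aged 10 to 14 weeks with the growth factor M-CSF, from wild-type (wt), MK2-/- and MK2/3-/- animals. Each culture had received either 100 ng/ml lipopolysaccharide (LPS), a bacterial cell wall component, or medium alone for 360 min. Agilent 1-colour arrays gave 4 wt medium, 3 wt LPS, 4 MK2-/- medium, 4 MK2-/- LPS, 3 MK2/3-/- medium and 4 MK2/3-/- LPS arrays. MK2-/- mice lack the kinase gene Mapkapk2 and MK2/3-/- mice lack Mapkapk2 and Mapkapk3, on a C57BL/6J background per the study's methods. How the alleles were made, and how much chromosome around each came with it, is not given in the sources used here. The methods describe the arrays as independent experiments, and the labels do not tie them to animals or pools, so the p-values below measure the spread between these arrays.

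MK2 and MK3 are protein kinases activated by the stress kinase p38 when LPS engages the receptor TLR4, and they are known for stabilising and licensing the translation of cytokine mRNAs in macrophages. The 8 genes have no common function; what they share is their place on the chromosome. Abhd14a and Abhd14b encode α/β-hydrolase fold proteins, and ABHD14B was first described as a partner of the transcription factor subunit TAF1 and later as a lysine deacetylase. Pcbp4 encodes a poly(rC)-binding protein, a KH-domain RNA-binding protein related to hnRNP K. Rbm15b encodes an RNA-binding adaptor of the complex that writes N6-methyladenosine into mRNA. Parp3 encodes a poly(ADP-ribose) polymerase family enzyme that acts in the repair of DNA breaks by end joining. Cish encodes CIS, a member of the suppressor of cytokine signalling (SOCS) family that is induced by the transcription factor STAT5 and limits signalling by cytokine receptors. Cacna2d2 encodes the α2δ-2 subunit of voltage-gated calcium channels, best known from neurons, and Iqcf5 belongs to a cluster of IQ motif genes known from testis.

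RefSeq promoter windows on GRCm38.p6, which run from 250 bases before the annotated start to 50 after it, were at hand for 7 of the 8 genes, and not for Pcbp4. Those of Cish and Parp3 are shown as the neighbours with the strongest LPS responses upward, and those of Abhd14a and Abhd14b as a divergent pair whose levels in MK2/3-/- BMDM were low in both treatments. In the Cish window, capitals mark 2 copies of TTCNNNGAA, the palindrome known as the STAT5 consensus, at bases 251 to 259 and 262 to 270 of the window. In the Abhd14a window they mark a CCAAT box at bases 149 to 153. Nothing is marked in the other 2 windows. CCAAT matches on the other strand, at bases 220 to 224 of the Cish window and 13 to 17 of the Parp3 window, are left in lower case.
Cish (chr9:107296409-107296708, plus strand): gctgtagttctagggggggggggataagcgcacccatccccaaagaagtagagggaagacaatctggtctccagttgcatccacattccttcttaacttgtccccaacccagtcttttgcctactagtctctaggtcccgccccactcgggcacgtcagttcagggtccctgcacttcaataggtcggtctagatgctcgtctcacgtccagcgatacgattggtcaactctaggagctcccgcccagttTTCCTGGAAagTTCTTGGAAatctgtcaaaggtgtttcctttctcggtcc
Parp3 (chr9:106476900-106477199, minus strand): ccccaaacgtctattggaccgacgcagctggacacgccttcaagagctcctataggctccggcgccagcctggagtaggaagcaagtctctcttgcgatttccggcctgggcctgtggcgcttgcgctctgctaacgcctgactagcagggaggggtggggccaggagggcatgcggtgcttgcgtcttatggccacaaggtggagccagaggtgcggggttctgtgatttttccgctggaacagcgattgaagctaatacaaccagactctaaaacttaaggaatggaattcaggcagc
Abhd14a (chr9:106447629-106447928, minus strand): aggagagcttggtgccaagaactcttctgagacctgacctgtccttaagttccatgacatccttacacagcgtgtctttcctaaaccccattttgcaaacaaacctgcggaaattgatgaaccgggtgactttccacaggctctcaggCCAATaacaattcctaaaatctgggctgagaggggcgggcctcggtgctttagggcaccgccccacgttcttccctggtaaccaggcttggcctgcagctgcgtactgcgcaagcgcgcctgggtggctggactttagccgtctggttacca
Abhd14b (chr9:106448390-106448689, plus strand): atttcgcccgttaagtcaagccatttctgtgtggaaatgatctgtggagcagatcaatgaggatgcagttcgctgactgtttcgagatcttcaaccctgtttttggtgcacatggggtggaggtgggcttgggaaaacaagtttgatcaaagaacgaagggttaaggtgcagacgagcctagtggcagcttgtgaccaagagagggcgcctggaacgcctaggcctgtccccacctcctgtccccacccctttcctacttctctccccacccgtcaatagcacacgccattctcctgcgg

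Both strands were searched for 3 motifs, overlapping matches included. TTCNNNGAA was found in 8.3% of the 32851 promoter windows of the same length, and 0.457% held 2 or more; Cish was the only member with a match among the 7 windows. CCAAT was found in 37.4% of all windows, and among the members in those of Abhd14a, Parp3, Cish and Iqcf5. A core of the interferon-stimulated response element was found in 3.44% of all windows and in none of the 7. The Abhd14a and Abhd14b windows lie on opposite strands with 461 bases between them. These matches are letters in a window and were not linked to any measurement.

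Values below are levels on the log2 scale, the log2 of the processed probe signal after quantile normalisation over all 22 arrays, and are comparable between arrays for the same probe only. Each gene was read by 1 probe except Cacna2d2, which had 2. Arrays had a median processed signal of 32.7 to 108 and 61.7% to 83.0% of spots well above background, as called by the scanner software, and no spot of a listed gene was saturated. The array labelled MK2-/- LPS replicate 3 stood apart with 2927 outlier spots against 115 to 261 on the others, and the calls that rest on it are given with and without it. The 3 genotypes were hybridised on 3 slides, 1 genotype to a slide, so genotype and slide cannot be told apart in any comparison between genotypes. Within a genotype, the LPS and medium arrays were on the same slide. All 7 macrophage markers with a probe were well above background on all 22 arrays, with a summed level of 18.8 to 19.5 on the log2 scale. A fibroblast list (Col1a1, Col1a2, Col3a1 and Dcn) ran from 9.41 to 16.7 over the arrays, with overlapping ranges in the 6 groups. Its ranges nevertheless sat higher in wt BMDM. In each treatment, the lowest and the highest wt sums lay above those of either mutant. Under LPS it read 13.47 to 15.89 in wt, 10.63 to 14.21 in MK2-/- and 10.31 to 14.88 in MK2/3-/- BMDM. In medium it read 11.57 to 16.66 in wt and 9.41 to 15.53 in MK2/3-/- BMDM. The difference between genotypes in this list was not tested.

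The targeted genes were read first. The Mapkapk3 probe averaged 13.13 ± 0.26 (SD, n = 4) in wt medium and 12.12 ± 0.16 (n = 3) in wt LPS, and 11.16 ± 0.23 (n = 3) and 8.004 ± 0.41 (n = 4) in MK2/3-/- BMDM. The Mapkapk2 probe read 11.90 ± 0.77 in wt medium and, lower, 8.88 ± 0.13 in MK2-/- medium (limma adjusted p = 3.88e-05, n = 4 and 4) and read 8.44 ± 0.08 in MK2/3-/- medium (n = 3). Whether either probe lies in the deleted part of its gene is not given in the sources used here, so the remaining signal checks nothing about the deletion.

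In unstimulated MK2/3-/- BMDM, 6 of the 8 genes read lower than in wt BMDM on every array, and Iqcf5 and Cacna2d2 read higher on every array. Abhd14b, Cish and Abhd14a differed most, at -3.86 ± 0.38 (SE), -3.47 ± 0.51 and -3.43 ± 0.63 on the log2 scale, although the Cish value rests on MK2/3-/- spots not well above background. Over all genes tested, the arrays of these groups did not overlap with MK2/3-/- higher for 13% and lower for 11%. Under LPS, Abhd14a, Abhd14b, Pcbp4, Parp3 and Rbm15b were lower on every array and Cacna2d2 was higher, against backgrounds of 15.8% lower and 12.4% higher. The median difference over the 8 genes was -1.73 in medium and -1.05 under LPS, where the median over all genes was -0.02 in each. These are the values that selected the genes, so nothing is read from the counts.

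Against MK2-/- BMDM, the same 6 genes were lower in unstimulated MK2/3-/- BMDM on every array, with a background of 10.9% lower and 7% higher. Under LPS, 3 stayed below every MK2-/- array, namely Abhd14b, Rbm15b and Cish, and Cacna2d2 lay above every one of them, where 5.67% of all genes were lower and 8.64% higher. The comparisons with wt and with MK2-/- BMDM share the MK2/3-/- arrays.

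**Figure D1:**
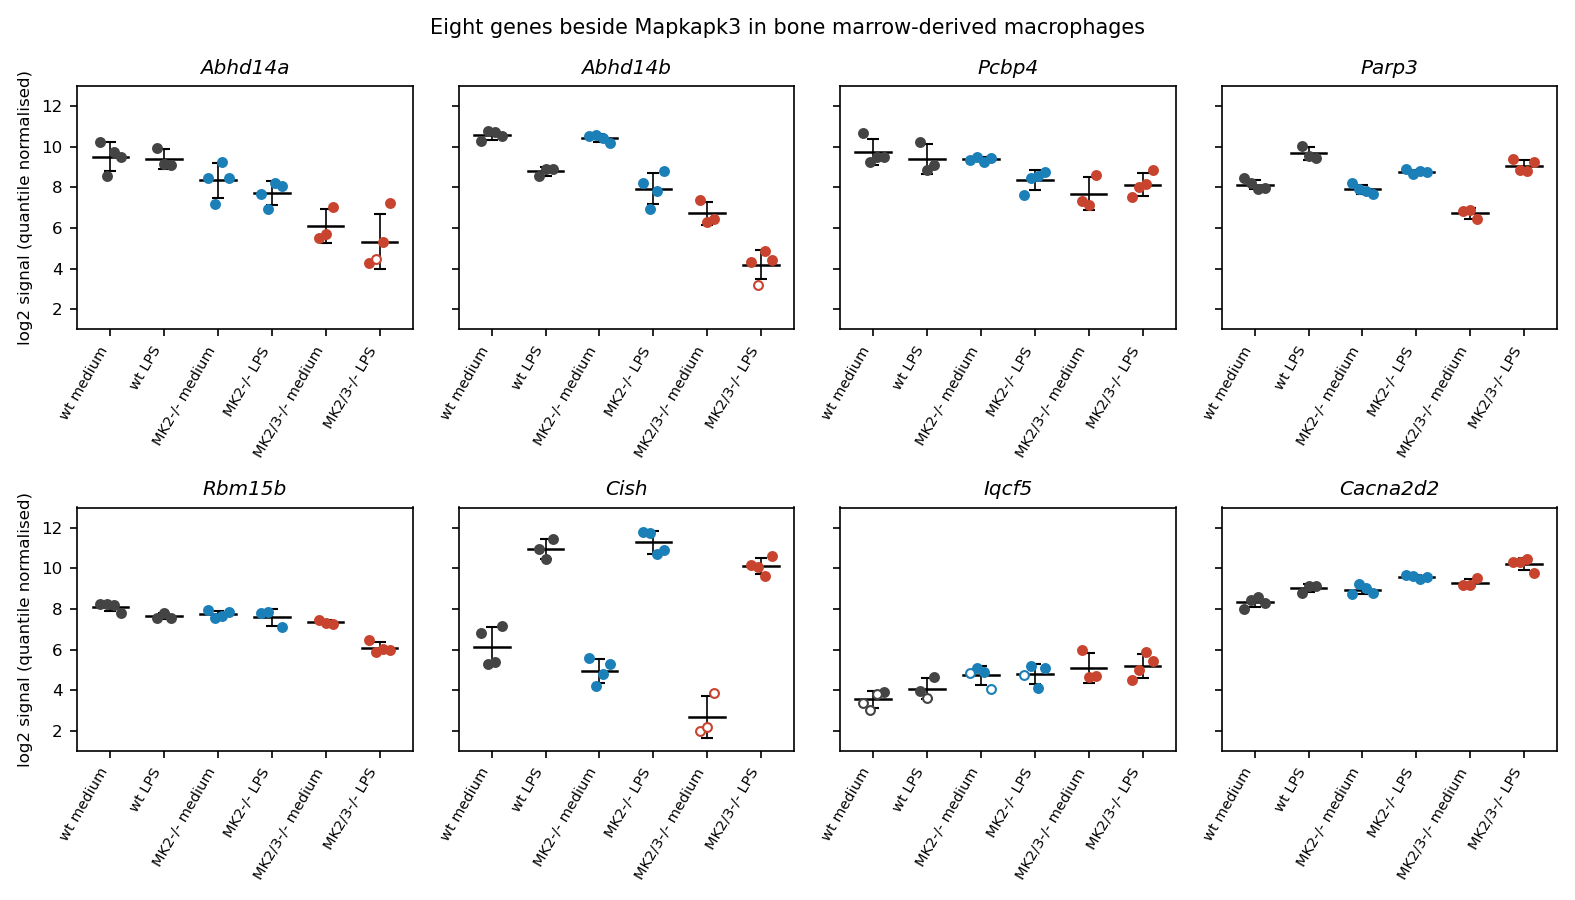
Level of each of the 8 genes on every array (vertical axis, log2 processed signal after quantile normalisation) in the 6 groups of genotype and treatment; points are arrays, open where the spot was not well above background, bars are means and whiskers SD. Abhd14b in MK2/3-/- BMDM sits at 6.32 to 7.37 in medium and 3.18 to 4.87 under LPS, below every wt and MK2-/- array of the same treatment, while Cacna2d2 under LPS sits highest in MK2/3-/- BMDM at 9.78 to 10.48.

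Abhd14a, the α/β-hydrolase fold gene next to Abhd14b, was highest in wt BMDM, intermediate in MK2-/- BMDM and lowest in MK2/3-/- BMDM. The 4 wt medium arrays read 10.26, 8.56, 9.76 and 9.51, and the 3 wt LPS arrays 9.96, 9.17 and 9.09. MK2-/- arrays read 8.47, 7.19, 9.25 and 8.47 in medium and 7.68, 6.91, 8.20 and 8.07 under LPS. In MK2/3-/- BMDM, medium arrays read 5.51, 5.73 and 7.04, and LPS arrays 4.27, 4.45, 5.33 and 7.26, where the array at 4.45 was not well above background. The LPS readings of 4.27 and 4.45 lay near the dimmest probe called well above background on each array, at 4.19 and 4.33. The MK2/3-/- arrays lay below every wt array in both treatments, by 10.8-fold in medium and 16.9-fold under LPS. Each group nevertheless overlapped with the next in the order of means. LPS gave no called difference: wt BMDM differed by -0.12 ± 0.63 (limma adjusted p = 0.906) and MK2-/- BMDM by -0.63 ± 0.58 (adjusted p = 0.417), while the MK2/3-/- value was -0.77 ± 0.63. Of 35 alternative analyses, 1 called the MK2-/- difference, that with the replicate number as a block (limma adjusted p = 0.0476). MK2-/- BMDM differed from wt by -1.18 ± 0.58 without stimulation (adjusted p = 0.207) and by -1.69 ± 0.63 under LPS (adjusted p = 0.082), the latter without overlap of the arrays but not past the threshold.

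Abhd14b fell with LPS in wt and MK2-/- BMDM, and it read low in MK2/3-/- BMDM in both treatments. In wt BMDM, medium arrays read 10.28, 10.76, 10.74 and 10.52, and LPS arrays 8.55, 8.92 and 8.89. In MK2-/- BMDM the medium arrays read 10.54, 10.58, 10.43 and 10.18, and the LPS arrays 8.22, 6.94, 7.81 and 8.80. MK2/3-/- medium arrays read 7.37, 6.32 and 6.47, and LPS arrays 4.34, 3.18, 4.87 and 4.40, of which that at 3.18 was not well above background. The wt and MK2-/- arrays overlapped in both treatments, whereas every MK2/3-/- array lay below every other array of the same treatment. In wt BMDM the LPS difference was -1.78 ± 0.38 (3.45-fold, limma adjusted p = 0.00095). MK2-/- BMDM gave -2.49 ± 0.36 (5.61-fold, adjusted p = 9.44e-06) and MK2/3-/- BMDM -2.52 ± 0.38, the latter at a level 14.5-fold below wt in medium and 24.1-fold below wt under LPS. The dimmest probes called well above background on the 4 MK2/3-/- LPS arrays read 4.19, 4.33, 3.89 and 3.77. The MK2/3-/- response and the fold under LPS therefore rest on readings near background. MK2-/- BMDM differed from wt by -0.14 ± 0.36 in medium (adjusted p = 0.835) and by -0.85 ± 0.38 under LPS (adjusted p = 0.149). The levels ran from wt medium and MK2-/- medium, which overlapped, through wt LPS, MK2-/- LPS and MK2/3-/- medium, each overlapping with the next, to MK2/3-/- LPS, which stood alone.

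Pcbp4, the RNA-binding protein gene that follows Abhd14b in gene order, was lowest in unstimulated MK2/3-/- BMDM. The wt medium arrays read 10.67, 9.26, 9.51 and 9.52 and the wt LPS arrays 10.23, 8.88 and 9.08. The MK2-/- medium arrays were close together at 9.36, 9.49, 9.27 and 9.43, with LPS arrays at 7.64, 8.47, 8.56 and 8.76. MK2/3-/- arrays read 7.34, 7.12 and 8.61 in medium and 7.51, 8.01, 8.18 and 8.86 under LPS. All MK2/3-/- arrays were below the wt arrays of the same treatment, by 4.13-fold in medium and 2.39-fold under LPS, but under LPS they overlapped with MK2-/- arrays. Pcbp4 fell by 1.03 ± 0.39 with LPS in MK2-/- BMDM (limma adjusted p = 0.0364), a call that was lost without any single MK2-/- medium array or without MK2-/- LPS replicate 1 or 2, with adjusted p up to 0.132. The wt value was -0.34 ± 0.42 (adjusted p = 0.558) and the MK2/3-/- value 0.45 ± 0.42. Against wt, MK2-/- BMDM differed by -0.35 ± 0.39 in medium (adjusted p = 0.604) and -1.04 ± 0.42 under LPS (adjusted p = 0.106).

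Abhd14a and Pcbp4 varied together within groups, and with the fibroblast list. After removing group means, the 22 arrays gave a Pearson r of 0.649 between the 2 genes, 0.821 between Abhd14a and the summed fibroblast level and 0.78 between Pcbp4 and that level; these points share arrays, depth and slides. The MK2/3-/- medium array with the highest fibroblast sum, 15.5, was also the highest of its group for both genes. In bulk samples such as these, fewer cells of a type and less RNA per cell cannot be told apart. Of 64 pairs of a gene and one of 8 marker lists, 8 had an r beyond 0.5 in size, the others being Cacna2d2 (0.784), Abhd14a (-0.661) and Pcbp4 (-0.507) with the T cell list, Cish (-0.559) and Rbm15b (0.567) with the macrophage list, and Cish with the fibroblast list (0.515). The T cell sum, set mostly by Cd3e, ranged over the groups from 9.84 to 10.7 in wt medium up to 11.1 to 12.3 in MK2-/- medium. The mast cell sum (Cpa3 and Mcpt4) was 5.75 to 6.12 in wt medium, 6.19 to 6.63 in MK2-/- medium and 6.61 to 6.82 in MK2/3-/- medium, and had an r of 0.813 with Cacna2d2 over all arrays and 0.0278 after group means were removed. The neutrophil sum was 11.3 to 11.8 in wt medium and 12.1 to 12.7 in MK2/3-/- medium, without overlap. Under LPS the order was the other way, with overlap, at 12.3 to 13.4 in wt and 11.7 to 12.5 in MK2/3-/- BMDM. The part of these other cell types in the results was not tested.

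Parp3, the poly(ADP-ribose) polymerase family gene, rose with LPS in wt and MK2-/- BMDM and had the lowest unstimulated level in MK2/3-/- BMDM. The wt arrays read 8.45, 8.21, 7.92 and 7.99 in medium and 10.03, 9.57 and 9.44 under LPS. The MK2-/- arrays read 8.21, 7.92, 7.83 and 7.68 in medium and 8.90, 8.64, 8.80 and 8.75 under LPS. In MK2/3-/- BMDM the medium arrays read 6.84, 6.91 and 6.43 and the LPS arrays 9.39, 8.87, 8.81 and 9.24. Medium arrays of MK2/3-/- BMDM lay below all others, while under LPS they lay between wt, which was above every other array, and MK2-/-, with which they overlapped. With LPS, wt BMDM gained 1.54 ± 0.20 (2.90-fold, limma adjusted p = 5.1e-06) and MK2-/- BMDM 0.86 ± 0.18 (1.82-fold, adjusted p = 0.000726), and the difference in MK2/3-/- BMDM was 2.35 ± 0.20, or 5.11-fold. Under LPS, Parp3 was lower in MK2-/- than in wt BMDM, at -0.91 ± 0.20 (1.88-fold, adjusted p = 0.00969), or -0.92 without MK2-/- LPS replicate 3 (adjusted p = 0.0153). Without wt LPS replicate 1 the difference was -0.73 and no longer past the threshold (adjusted p = 0.0509). In medium the 2 genotypes differed by -0.23 ± 0.18 (adjusted p = 0.447).

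Rbm15b, the methylation adaptor gene, covered a narrower range than the hydrolase genes and was lowest in MK2/3-/- BMDM treated with LPS. Medium arrays of wt BMDM read 8.23, 8.25, 8.19 and 7.81, and LPS arrays 7.57, 7.81 and 7.55. Medium arrays of MK2-/- BMDM read 7.93, 7.55, 7.65 and 7.84, and LPS arrays 7.78, 7.86 and 7.11, the spot on replicate 3 having been left out as an outlier spot. Those of MK2/3-/- BMDM read 7.46, 7.31 and 7.28 in medium and 6.47, 5.86, 6.05 and 6.00 under LPS. Only the MK2/3-/- LPS arrays were clear of all other groups, while all other neighbours in the order of means overlapped. The gap between MK2/3-/- and wt BMDM was 1.70-fold in medium and 2.93-fold under LPS. With LPS, Rbm15b differed by -0.47 ± 0.20 in wt (limma adjusted p = 0.0633), by -0.16 ± 0.20 in MK2-/- (adjusted p = 0.556) and by -1.26 ± 0.20 in MK2/3-/- BMDM. The wt value passed the threshold without wt medium replicate 4 (-0.58, adjusted p = 0.0345), MK2-/- LPS replicate 4 (adjusted p = 0.0352) or MK2/3-/- LPS replicate 1 (adjusted p = 0.0487). MK2-/- BMDM differed from wt by -0.38 ± 0.18 in medium (adjusted p = 0.205) and by -0.06 ± 0.21 under LPS (adjusted p = 0.877).

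Cish had the largest LPS response of the 8 genes. It read 6.80, 5.27, 5.36 and 7.14 on the wt medium arrays and 10.98, 10.45 and 11.43 on the wt LPS arrays. It read 5.56, 4.21, 4.79 and 5.27 on the MK2-/- medium arrays and 11.79, 11.77, 10.71 and 10.91 on the MK2-/- LPS arrays. On the MK2/3-/- medium arrays it read 1.99, 2.19 and 3.84, none well above background, and on the LPS arrays 10.17, 10.09, 9.61 and 10.60. Every LPS array lay above every medium array, and the MK2/3-/- medium arrays lay below all others.

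Cish rose by 4.81 ± 0.51 with LPS in wt BMDM (28.0-fold, limma adjusted p = 4.08e-07) and by 6.34 ± 0.47 in MK2-/- BMDM (80.9-fold, adjusted p = 2.18e-09), the latter 6.53 without MK2-/- LPS replicate 3. For MK2/3-/- BMDM the medium level is only a bound, on each array the higher of the Cish reading and the dimmest probe well above background. That probe is not a detection limit for Cish. On replicate 3 Cish read 3.84 and was not called, where the dimmest called probe read 3.62. On that bound the LPS level was at least 84.0-fold higher. On the same bound, unstimulated MK2/3-/- BMDM read at least 5.35-fold below wt and at least 2.35-fold below MK2-/- BMDM. Under LPS the MK2/3-/- level differed from wt by -0.84 ± 0.51, with overlapping arrays, and from MK2-/- by -1.18 ± 0.47, without overlap. Against wt, MK2-/- BMDM differed by -1.19 ± 0.47 in medium (adjusted p = 0.119) and 0.34 ± 0.51 under LPS (adjusted p = 0.692). Among the SOCS relatives, Socs3 rose by 6.69 and Socs1 by 6.05 in wt BMDM, on the same log2 scale of differences.

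Iqcf5, of the IQ motif cluster, was dim, and its means were higher in the mutants than in wt BMDM, with overlapping arrays under LPS. The wt medium arrays read 3.38, 3.03, 3.82 and 3.92 and the wt LPS arrays 3.97, 3.62 and 4.63, of which 1 of 4 and 2 of 3 were well above background. MK2-/- arrays read 4.87, 5.10, 4.91 and 4.05 in medium and 4.73, 5.19, 4.12 and 5.09 under LPS, with 2 of 4 and 3 of 4 well above background. MK2/3-/- arrays read 5.97, 4.63 and 4.70 in medium and 4.49, 5.00, 5.88 and 5.44 under LPS, and all 7 were well above background. Every mutant medium array was above every wt medium array, and all neighbours in the order of means overlapped. The medium difference between MK2-/- and wt BMDM was 1.19 ± 0.36 on the log2 scale (limma adjusted p = 0.0479), a call close to the threshold that was kept in 12 of 34 alternative analyses, with adjusted p from 0.00148 to 0.141. Of the 22 analyses that each left out a single array, only those without wt LPS replicate 3, MK2-/- medium replicate 4, MK2-/- LPS replicate 3, MK2/3-/- medium replicate 1 or MK2/3-/- LPS replicate 1 or 3 kept it. Under LPS, MK2-/- BMDM differed from wt by 0.71 ± 0.39 (limma adjusted p = 0.235) and MK2/3-/- BMDM by 1.13 ± 0.39. LPS differences were 0.53 ± 0.39 in wt (adjusted p = 0.301), 0.05 ± 0.36 in MK2-/- (adjusted p = 0.93) and 0.10 ± 0.39 in MK2/3-/- BMDM. No fold is read for Iqcf5, since most wt medium spots were not well above background.

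Cacna2d2, the calcium channel subunit gene, rose with LPS in wt and MK2-/- BMDM and read highest in MK2/3-/- BMDM. For wt BMDM the brighter probe read 8.01, 8.45, 8.57 and 8.28 in medium and 8.80, 9.14 and 9.12 under LPS. For MK2-/- BMDM it read 8.73, 9.21, 9.06 and 8.78 in medium and 9.65, 9.63, 9.46 and 9.58 under LPS. For MK2/3-/- BMDM it read 9.17, 9.20 and 9.51 in medium and 10.30, 10.30, 10.48 and 9.78 under LPS. Under LPS the 3 genotypes did not overlap, with wt lowest, and in medium only wt stood clear. On none of the 22 arrays was the second probe well above background, and no level is read from it.

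The LPS difference of Cacna2d2 was 0.69 ± 0.19 in wt (1.62-fold, limma adjusted p = 0.00582), 0.64 ± 0.17 in MK2-/- (1.55-fold, adjusted p = 0.0054) and 0.92 ± 0.19 in MK2/3-/- BMDM. MK2-/- BMDM exceeded wt by 0.62 ± 0.17 in medium (1.54-fold, adjusted p = 0.0346), a call lost without wt medium replicate 1 or 4 or MK2-/- medium replicate 2 or 3, with adjusted p up to 0.117. Under LPS the difference of 0.56 ± 0.19 just missed the threshold (adjusted p = 0.0578). MK2/3-/- BMDM exceeded wt by 1.96-fold in medium and 2.29-fold under LPS.

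Set side by side, the LPS responses of the 8 genes ran in both directions. Parp3, Cish and Cacna2d2 rose in wt and in MK2-/- BMDM, Abhd14b fell in both, and Pcbp4 fell in MK2-/- BMDM. This was 3 higher and 1 lower of 8 in wt BMDM, where 18.6% of all genes rose and 23.5% fell. In MK2-/- BMDM it was 3 higher and 2 lower, where 17.5% rose and 27.1% fell. In MK2/3-/- BMDM, the LPS arrays of Parp3, Cish and Cacna2d2 lay above all medium arrays and those of Abhd14b and Rbm15b below, against backgrounds of 21.4% and 28.8%. The 5 calls in MK2-/- BMDM were also made without MK2-/- LPS replicate 3, where that of Pcbp4 had an adjusted p of 0.0452. The median LPS difference over the 8 genes was 0.21 in wt, -0.05 in MK2-/- and 0.28 in MK2/3-/- BMDM, against -0.04, -0.01 and 0.01 over all genes.

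**Figure D2:**
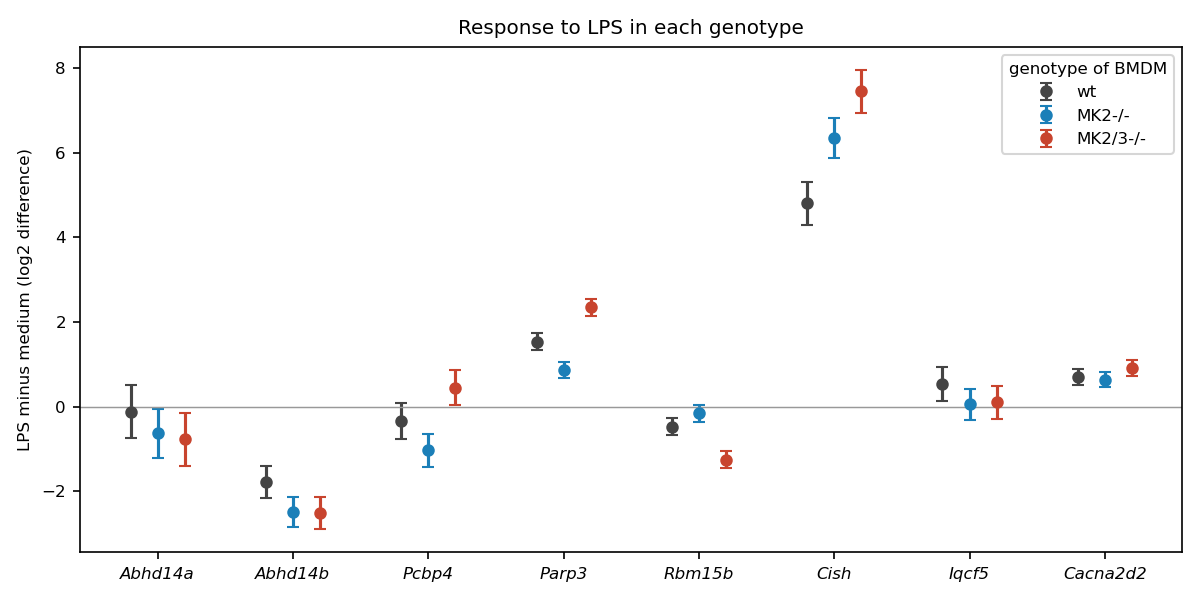
LPS minus medium difference of each gene (log2, with SE as whiskers) in wt, MK2-/- and MK2/3-/- BMDM. Cish lies farthest above 0 in wt and MK2-/- BMDM, at 4.81 and 6.34. Its MK2/3-/- point is drawn from medium spots not well above background, for which only the bound of at least 84.0-fold is read. Abhd14b lies farthest below 0, at -1.78, -2.49 and -2.52, the last from LPS readings near background.

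Most of these genes were not called between MK2-/- and wt BMDM, and a missing call does not mean an equal level. Iqcf5 and Cacna2d2 were called higher in unstimulated MK2-/- BMDM and none lower, where 5.71% of all genes were higher and 3.12% lower. The wt arrays also entered the differences that selected the 8 genes, so calls of MK2-/- against wt BMDM are not free of that selection. Under LPS only Parp3 was called, lower, and none was higher, against backgrounds of 7.06% and 4.52%. Before adjustment, 5 of the 8 had a limma p below 0.05 under LPS, as had 6600 of the 22381 genes. The LPS arrays of the 2 genotypes did not overlap for Abhd14a, Pcbp4 and Parp3 (lower) and Cacna2d2 (higher), against 27.8% of all genes. Whether LPS acted differently in MK2-/- and wt BMDM was tested directly, and limma called none of the 8 genes and 0% of all genes. With an unadjusted p below 0.05 there were 1686 genes, 2 of the 8 among them, namely Parp3 at -0.68 ± 0.27 and Cish at 1.53 ± 0.69, and the smallest adjusted p of the 8 was 0.601. The corresponding differences between MK2/3-/- and wt BMDM were 0.81 ± 0.28 for Parp3, 2.64 ± 0.72 for Cish and -0.78 ± 0.28 for Rbm15b. For Cish that value rests on medium spots that were not well above background. These comparisons share the wt arrays.

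The genes are spread over a stretch rather than flanking Mapkapk3 directly. Counted in the RefSeq gene order, Abhd14a, Abhd14b, Pcbp4, Parp3, Iqcf5 and Rbm15b lie 28, 27, 26, 24, 20 and 9 genes to the low-numbered side, and Cish and Cacna2d2 lie 2 and 6 genes to the other. The 3 entries before Mapkapk3 (Gm23595, AA543401 and Gm51734) and the next one after it (Gm17040) are snoRNA or pseudogene entries and were not tested. Within 50 entries on each side, 63 of 68 protein-coding genes were tested. In the MK2/3-/- against wt comparison, limma called 2.02% of all genes in medium and 23.6% under LPS, in either direction. Of the 63 neighbours, 9 were called in medium and 22 under LPS. Without the 8 genes, which were picked for this difference, 2 of 55 (3.64%) were called in medium and 15 of 55 (27.3%) under LPS. On the rest of chromosome 9, more than 200 entries away, the counts were 13 of 831 (1.56%) and 187 of 831 (22.5%). Within 50 entries of Mapkapk2, on another chromosome, 1 of 46 (2.17%) and 19 of 46 (41.3%) were called. With 75th percentile scaling in place of quantile normalisation, the neighbours without the 8 genes gave 12 of 55 (21.8%) and 23 of 55 (41.8%), against 19.1% and 36.6% of all genes.

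**Figure D3:**
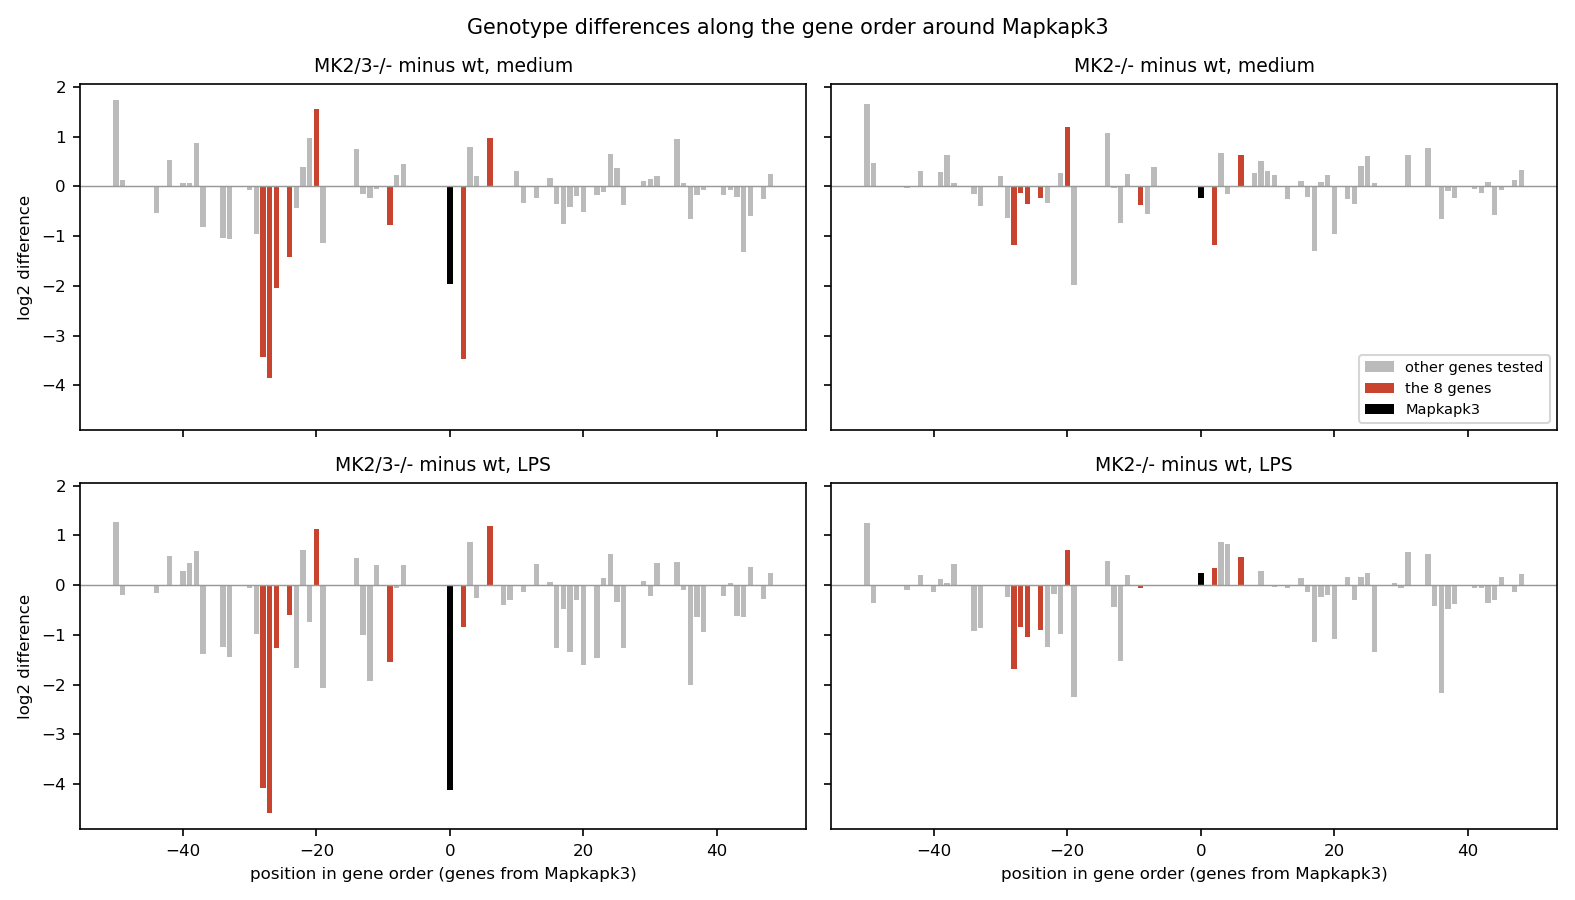
Difference from wt BMDM (log2) of every tested gene within 50 entries of Mapkapk3, plotted by place in the gene order, for MK2/3-/- and MK2-/- BMDM in medium and under LPS. The low values of Abhd14a, Abhd14b and Pcbp4 at 28 to 26 entries before Mapkapk3 and of Cish 2 entries after it (from spots not well above background), in medium, are the lowest in the stretch. On the far side of Abhd14a, in medium, Poc1a at -1.04, Dusp7 at -1.07 and Acy1 at -0.96 lie below 0. On that same side Col6a5 at 1.73, Tlr9 at 0.87 and Wdr82 at 0.54 lie above 0, and Rpl29 is at -0.08. Elsewhere among unselected genes, Amigo3 is at -1.33 and Iqcf4 at -1.15.

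The selection states no threshold, so values on both sides of it are given once. Rbm15b, at -0.77 in medium and -1.55 under LPS, and Cacna2d2, at 0.97 and 1.196, were the smallest medium differences among the 8. Among neighbours not selected, Alas1, the rate-limiting enzyme of heme synthesis, at -0.82 and -1.39, and Naa80, the N-terminal acetyltransferase of actin, at -0.42 and -1.34, were clear of all wt and MK2-/- arrays in both treatments. Hemk1, next to Cish, exceeded wt by 0.79 in medium and 0.87 under LPS in MK2/3-/- BMDM, while the MK2-/- values were 0.67 and 0.87. The following genes were picked after their values were seen. Tlr9, the receptor for CpG DNA, at 0.87, and Amigo3 at -1.33 were the 2 neighbours called in medium. Some unselected genes differed as much as selected ones. Col6a5 read 1.73 in medium and 1.27 under LPS, and Iqcf4, beside Iqcf5, read -1.15 and -2.07, neither of them called. Traip read -0.65 and -2.01 and was called under LPS only. Between the selected genes, the secreted factor gene Manf read 0.23 and -0.06 and Dock3 0.45 and 0.40, and beyond Abhd14a the ribosomal protein gene Rpl29 read -0.08 and -0.06, while Acy1, beside Abhd14a, read -0.96 and -0.98, and Rrp9, beside Parp3, -0.44 and -1.66. Selected and unselected genes were therefore interleaved.

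Relatives of the 8 genes elsewhere served as a comparison, from lists chosen by family or complex. The counts stand beside the shares of all genes given above, 18.6% rising and 23.5% falling with LPS in wt BMDM. Of 15 other PARP family genes tested, 9 rose and 4 fell with LPS in wt BMDM, with Tiparp at 4.00, Parp12 at 3.78 and Parp14 at 3.06, and Parp1 at -1.94. In the end-joining list, which shares Parp1 and Parp2 with that list, 1 of 10 rose and 6 fell. Of 7 other SOCS genes 3 rose and 1 fell, and of 15 STAT5 pathway genes, which share Socs2 with them, 8 rose and 2 fell, among them Pim1 at 4.84, Jak2 at 3.86 and Csf2, which was at least 26.2-fold higher over medium arrays where it was not well above background. The median LPS difference was 1.72 in the PARP, -0.77 in the end-joining, 0.54 in the SOCS and 0.54 in the STAT5 list, against -0.04 over all genes. Of 17 other ABHD genes, 4 rose and 6 fell, with Abhd15 at -5.96, Abhd4 at -2.49 and a list median of -0.18. The PCBP list had 1 of 4 higher, the m6A writer list 2 of 8 higher (Wtap, at 0.78, and Spen, at 0.81), the calcium channel list 1 of 15 higher and 3 lower, and none of the 3 tested IQCF relatives, which lie in the same neighbourhood, was called.

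In the MK2/3-/- against wt comparison in medium, limma called 1 relative, Abhd2, at -1.03 ± 0.22 (adjusted p = 0.0271), and no member of the other 8 lists. No relative in any list reached the difference of Abhd14a, Abhd14b or Cish, of which that of Cish rests on spots not well above background. The 8 genes were selected by this difference and the relatives were not, so nothing is read from that. Of all genes, 1.5% were called higher and 0.523% lower in that comparison, and 9.62% higher and 14% lower under LPS. Under LPS, 8 of 10 end-joining genes were lower, as were 5 of 17 ABHD genes (3 were higher), 3 of 15 PARP genes (Parp1, Tiparp and Parp2) and Pcbp3. Osm at 0.88 and Il2rg at 1.06 were higher, and no SOCS, m6A writer, IQCF or calcium channel relative was called.

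**Figure D4:**
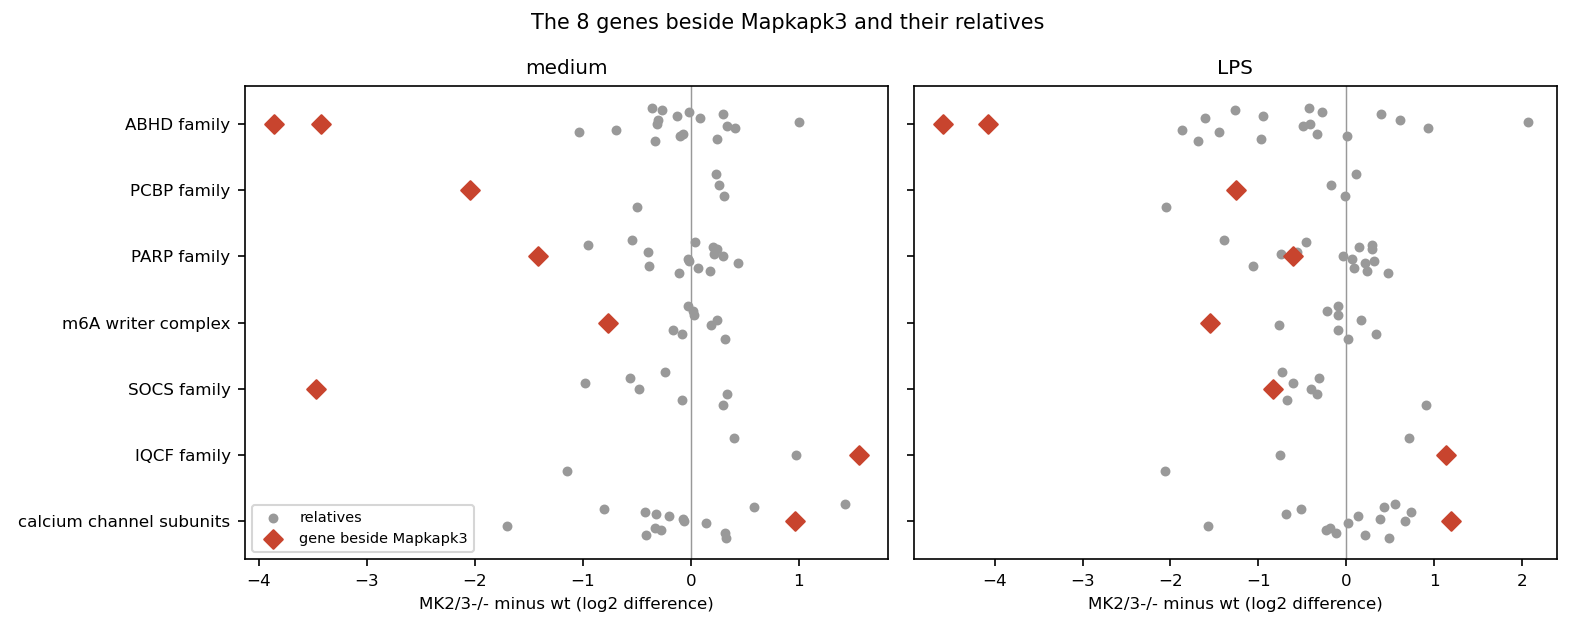
MK2/3-/- minus wt difference (log2) of each selected gene and of its relatives, by family or complex, in medium and under LPS; each point is a gene. Abhd14a and Abhd14b, at -3.43 and -3.86 in medium, lie far below their ABHD relatives, whose median was -0.10. Both were selected by this difference, so nothing is read from the distance.

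Among 21275 genes compared over the 22 arrays, the profiles most like each of the 8 were found by Pearson r, as a description, since all points share the 6 groups and 3 slides. Rbm15b was most like Gtf3c4 (0.948) and Mapkapk3 itself (0.939), each over 21 arrays, and then Ints5 (0.929). Abhd14b was most like an unnamed RefSeq transcript (0.950) and Gm8580 (0.946). Parp3 was most like Thoc6 (0.907), Gtf2f1 (0.905) and Amigo3 (0.897), which lies 44 entries beyond Mapkapk3. For Cish these were Plat (0.972), Atp10a (0.968) and Ier3 (0.966), for Cacna2d2 Cox4i2 (0.977), Hes7 (0.971) and an unnamed transcript (0.971), and for Abhd14a Mpzl1 (0.909), Pcx (0.901) and Lsm11 (0.888). The nearest profiles to Pcbp4 were Adgrl1 (0.860), Smoc1 (0.845) and Krt19 (0.839), and to Iqcf5 Usp44 (0.919), Gm4719 (0.902) and Vmn1r89 (0.900). Among the 8 genes themselves, Abhd14a and Abhd14b had an r of 0.815 over all arrays but 0.13 after group means were removed, while Parp3 and Cish had 0.882 and -0.02.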

How the data were processed

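Total RNA of 22 macrophage cultures was labelled with Cy3 and hybridised to Agilent SurePrint G3 Mouse arrays, and the authors deposited Feature Extraction 11.0.1.1 output, whose intensity columns are background-subtracted processed signals per spot. They also deposited a table of quantile normalised log2 values with each probe centred near its median (column medians -0.07 to 0.08), used here as an alternative; it tracked the scanner values with r from 0.993 to 0.999. Here, log2 processed signals were quantile normalised over all arrays, control spots (3671 of 62976) and outlier spots were left out, spots of a probe were averaged, and a probe was kept if at least 3 arrays called it well above background. Genes were named by RefSeq accession, which gave 22381 genes, 18371 of them with a symbol, each represented by its brightest probe on average. A 6-group model was fitted with limma 3.58.1 in R 4.3.3, with Benjamini-Hochberg adjustment over all genes and a threshold of 0.05, and was tested on simulated data. No test is given for differences of MK2/3-/- BMDM in the 8 genes, since those differences chose them. Tests of MK2-/- against wt BMDM share the wt arrays with that choice. The members and lists were chosen with earlier results of these data known. Named were all members and their probes, Mapkapk3 and Mapkapk2, up to 10 neighbours within 50 genes clear of wt and MK2-/- arrays in both treatments, the 3 genes on each side of Mapkapk3, the 3 most alike profiles (1 is not reported here), and up to 5 called relatives per list. Marker lists covered macrophages, T cells, B cells, neutrophils, fibroblasts, erythroid cells, dendritic cells and mast cells. Samples were grouped by genotype and treatment in the labels. Replicate numbers are not said to pair arrays. Same-numbered arrays deviated together with r over 0.1 in 7 of 10 pairs (-0.09 to 0.36), against 5 of 30 other pairs. Arrays with the same letter, of the same age in 10 of 10 pairs, did so in 7 of 10 (-0.09 to 0.42), against 5 of 30 other pairs. The main model did not pair arrays. Alternatives were another scaling, normexp background correction on median signals, the authors' table, other filters and probe rules, array weights, blocks, the methods' t-test and leaving out each array. The number of arrays limits the precision.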

Additional observations from a re-analysis of the deposited data

Results flagged for a closer look

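The level of Rbm15b on wt medium replicate 4, 7.81, lay below the other 3 arrays of its group, the nearest of which read 8.19. The gap was 0.8533 of the range of the group, above the critical value for 4 samples. It was the only such array in 31 groups of 4 checked over the 8 genes, where chance gives about 1 in 20 groups. Without that array, the LPS difference of Rbm15b in wt BMDM was -0.58 (limma adjusted p = 0.0345) in place of -0.47 (adjusted p = 0.0633). The cause was not tested.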

How the results depend on the processing

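None of the differences changed its sign past the threshold under the 14 alternative analyses or the 22 that left out 1 array each. The 4 calls with LPS in wt BMDM became 4 to 5 without single arrays, and the 5 in MK2-/- BMDM 4 to 5. The number of genes called between MK2-/- and wt BMDM in medium, 2, was 1 with normexp correction, with the authors' table, without a filter on dim probes, with a filter on all 22 arrays, with outlier spots kept, with only the arrays of the groups compared and with array letter as a random replicate block, and 0 by the methods' t-test once adjusted by Benjamini-Hochberg; without single arrays it was 0 to 2. Under LPS, the count of 1 became 3 with 75th percentile scaling, 3 with normexp correction, 2 with the filter on all 22 arrays, 2 with only the arrays compared, 4 with array weights, 0 with the methods' t-test after adjustment and 3 before it, and 0 to 3 without single arrays. The filter on all 22 arrays left 4 of the 8 genes and so lowered counts by construction: 3 in place of 5 with LPS in MK2-/- BMDM, and for arrays that do not overlap 3 in place of 5 with LPS in MK2/3-/- BMDM, 4 in place of 8 against wt in medium, and 3 in place of 6 and 2 in place of 4 against MK2-/- BMDM in medium and under LPS. With the replicate number as a block, 6 genes were called with LPS in MK2-/- BMDM and 4 in wt BMDM, Abhd14a being added in the former (adjusted p = 0.0476); array letters, which pair arrays of the same age, had a consensus correlation of 0.142. A slide block could not be fitted, because each slide holds 1 genotype.

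Scaling to the 75th percentile moved the median LPS difference over all genes from -0.04 to 0.30 in wt, from -0.01 to 0.28 in MK2-/- and from 0.01 to 0.29 in MK2/3-/- BMDM, and that of MK2/3-/- against wt under LPS from -0.02 to 0.15, so small changes are relative to those shifts. The share of calls that were higher went from 44.2% to 60.5% with LPS in wt, from 39.2% to 53.6% in MK2-/- BMDM, from 64.7% to 84% and from 39% to 63.7% for MK2-/- against wt in medium and under LPS, and from 74.1% to 90.1% and from 40.7% to 57.3% for MK2/3-/- against wt. Over all genes, 1975 against 4897 were called for MK2-/- against wt in medium and 2591 against 4751 under LPS, and 452 against 4268 and 5283 against 8195 for MK2/3-/- against wt. Normexp correction with an offset of 50 compressed dim signals by construction: Cish differed by -0.94 in place of -3.47 between MK2/3-/- and wt BMDM in medium. The cause of the other shifts was not tested.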
